A study of Rattus norvegicus with 13 samples.

Results

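Male Sprague–Dawley rats had their frontal cortex profiled 1 month after 2 kinds of experimental head trauma, and the results below are on the effect that both kinds had in common. All 13 of the 13 arrays of the series were used, each holding the RNA of 1 sample. Rotational trauma, a rapid angular acceleration of the head, was given to 3 samples and compared with 3 samples of its own sham. Lateral fluid percussion, a pressure pulse on the exposed dura at the side of the skull, was given to 3 samples and compared with 4 samples of its own sham. The sham animals of each model had the anaesthesia and the surgery of that model without the trauma, so that the exposure common to all 4 groups is anaesthesia with surgery. No transgene or other allele is named in the labels. The ages of the animals were not given in the sources used here, and nothing says whether tissue of several animals was pooled. The labels call the replicates separate samples without naming animals, and p-values therefore rest on the spread from sample to sample, which may be technical. For every gene the shared effect is the average of the 2 trauma minus sham differences on a log2 scale.

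A head impact is followed for weeks by a secondary phase in which astrocytes and microglia stay reactive, the blood vessels and the membranes around the brain are remodelled, and synapses are lost or rebuilt. The meninges are the membranes that cover the cortex: fibroblasts there make collagens and proteoglycans, transporters and growth factors, and macrophages of the brain's borders live beside them. Complement proteins, the copper oxidase ceruloplasmin and the inhibitor of complement component C1 are acute-phase products that glia, meningeal cells and the liver can make.

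The labelled tissue was checked against marker genes. Markers of cortical excitatory neurons (Slc17a7, Tbr1), inhibitory neurons (Gad1), astrocytes (Gfap, Aqp4), oligodendrocytes (Mbp), microglia (Aif1, Tmem119) and endothelium (Cldn5) were well above background on all 13 arrays. Cux2, a marker of upper cortical layers, had 0 probes under that name on the array. Of the markers of other tissues, Kl, Gpr6, Cd3e and Cd79b were well above background on 0 arrays and Folr1 on 2. Drd2 and Adora2a of the striatum and Alas2 and Hba-a1 of blood were above background on all 13. The neutrophil genes S100a9 and S100a8 were so on 10 and on 5. Ttr, the transthyretin gene that marks choroid plexus, was above background on 12, and Ogn, Slc22a6 and Slc6a13 of the meninges on all 13. The share of spots well above background was 67.0% to 74.1%, and replicate arrays had pairwise r of 0.988 to 0.997 over genes, which are no independent replicates. Each model filled a slide of its own, and the effects of slide and model cannot be told apart. On the rotational slide, sham arrays lay in column 1 and trauma arrays in column 2, and on the percussion slide the order was the opposite. If the column shifts a gene by the same amount on both slides, that shift drops out of the average of both models. Slide rows were not balanced between groups, since no rotational sham array lay in row 1, no rotational trauma array in row 4 and no percussion trauma array in row 3. The share of spots well above background was 72.7% to 74.1% in column 1 and 67.0% to 72.5% in column 2.

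Genes of the meninges and their matrix stood higher after both kinds of trauma, as did most of those of border macrophages. Their list medians were 1.03 and 0.49 on the log2 scale. Most complement genes were higher by less (0.24), and acute-phase genes were less uniform (0.14, with 11 of 21 higher in both models). Genes of red blood cells (−0.285) and of synaptic vesicles (−0.095) stood lower on average. Those of the striatum (−0.276) did so mainly in the rotational model. None of these differences passed over all genes. In these bulk samples, a different number of cells of a type and a different amount of RNA per cell cannot be told apart. Nor can a response of the tissue be told apart from a different share of meninges in the dissected samples, which was not tested. By limma, 0 of 17232 genes (0%) had an adjusted p under 0.05 for the shared effect, and the smallest adjusted p was 0.186. Without adjustment, 1538 genes (8.93%) had a p under 0.05, of which 879 (5.10%) were higher and 659 (3.82%) lower after trauma. The average differences ran from −2.40 to 1.71, with 67 genes above 1 on the log2 scale and 32 below −1. Leaving out 1 sample gave counts of 39 called genes without rotational trauma 2, 8 without rotational trauma 3, 4 without rotational sham 1 and 3 without rotational trauma 1. The count was 2 without rotational sham 3, percussion trauma 1, percussion trauma 3 or percussion sham 3, and 1 without rotational sham 2 or percussion trauma 2. Weights for each array gave 165 genes, in a fit of the weights that stopped before its tolerance, the replicate number as a block gave 99 and the slide row as a factor 5. The weight of rotational sham 3 was 9.52, against 0.354 to 1.55 for the other arrays.

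Most genes did not move together in the 2 models. By the average, 7801 genes (45.3%) were higher after trauma. Of all genes, 3622 (21.0%) were higher after trauma in both models and 4906 (28.5%) lower in both, so that 49.5% had the same sign. The 2 differences correlated across genes at a Pearson r of 0.188 and a Spearman rho of 0.0376, where genes are not independent replicates and all genes of a model share its slide. The value of r was 0.0399 without rotational trauma 1. Within the rotational model 2 genes (0.0116%) passed by limma and within percussion 0 (0%). Larger differences more often had the same sign. Among the 414 genes that differed by more than 0.5 in each model, 217 were higher in both, 97 lower in both and 100 opposite. Among the 54 that differed by more than 1 in each, 38 were higher in both, 9 lower in both and 7 opposite. By limma, 0 genes differed between the models at an adjusted p under 0.05 (the lowest was 0.0652), and 1476 had a p under 0.05 before adjustment.

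**Figure D1:**
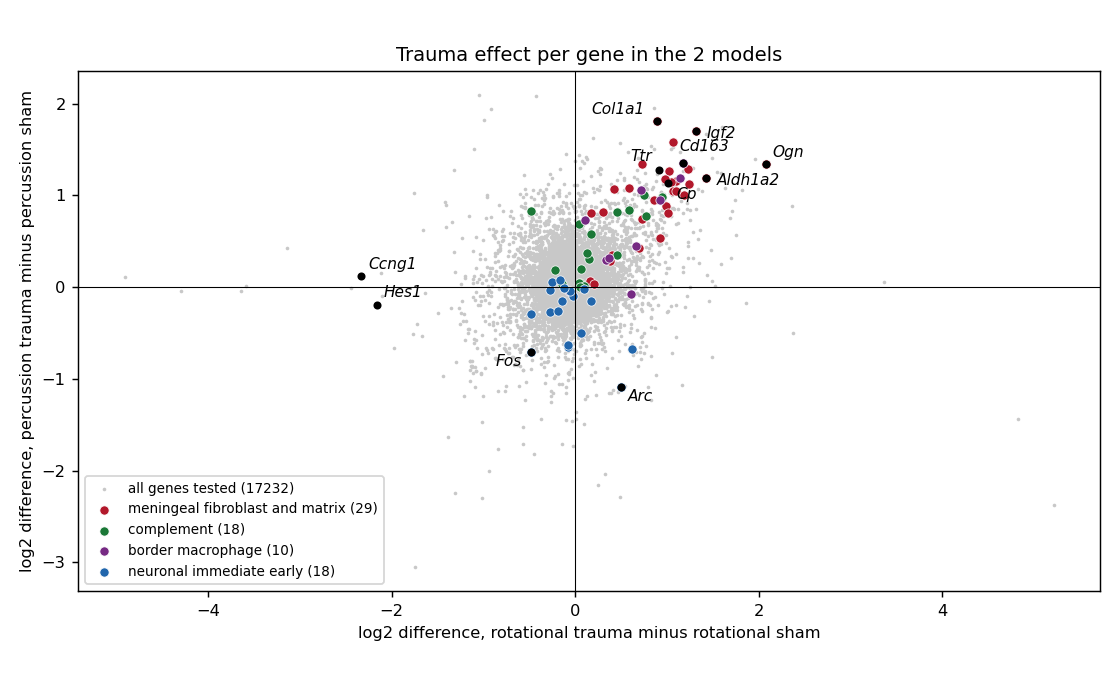
Log2 difference of trauma minus sham for each of 17232 genes, rotational model on the horizontal axis and percussion model on the vertical axis, with the members of 4 gene lists in colour and 11 genes named. All 29 measured meningeal and matrix genes lie above 0 on both axes, Ccng1 and Hes1 lie far from 0 on the rotational axis only, and Arc lies on opposite sides of 0. Percussion sham was not above background for Cd163 or for Lum of the meningeal list, so their vertical positions are not measured folds.

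A stricter description asks in which genes every trauma sample lay beyond every sham sample of its own model. This held in the higher direction in both models for 96 genes (0.557%), in the lower direction for 47 (0.273%), and in opposite directions for 133 (0.772%). Taken alone, the rotational model had 839 such genes higher and 1824 lower, and percussion had 1018 higher and 660 lower. How many would coincide if the models were unrelated was not tested, so the counts do not show that a set is shared. The higher set was larger in size of difference: its median was 0.69 on the log2 scale and 20 of its genes were past 2-fold, against a median of −0.26 and 2 genes past 2-fold in the lower set. Of the 96 genes, 87 carry an official symbol, and of the 47 genes, 26. Of the opposite genes, 103 were lower after rotational and higher after percussion trauma, that is, higher in slide column 1 on both slides, and 30 were the reverse. The part of the slide column in these counts was not tested. Fewer samples make overlap rarer. Leaving any sample out raised the counts of genes higher in both, lower in both and opposite, to at least 100, 64 and 178. A rise alone is therefore no result about a sample. With 1 sample left out, the count in the higher direction was 291 without rotational trauma 2, 187 without percussion trauma 3, 180 without percussion sham 1, 163 without rotational sham 1 and 155 without percussion trauma 2. In the lower direction it was 174 without rotational trauma 2, 135 without percussion trauma 3, 118 without percussion sham 4, 109 without percussion trauma 1, 91 without rotational sham 1, 87 without percussion trauma 2, 76 without rotational sham 2, 73 without percussion sham 1 and 71 without percussion sham 3. Opposite directions were found for 515 genes when percussion trauma 3 was left out, for 351 when rotational trauma 1 was, for 234 when percussion trauma 1 was, for 223 when percussion sham 1 was and for 215 when rotational sham 2 was.

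The 12 named genes of smallest p in the higher set are given with their values. Levels are scaled log2 signals, the log2 spot intensity minus the 75th percentile of its array, in the order of the sample numbers. Where a sentence does not name the groups, the rotational model comes before percussion and trauma is set against sham. A level of 1 probe cannot be set against that of another.

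Ogn encodes osteoglycin, a small leucine-rich proteoglycan that binds collagen. Its signal was 0.64, 0.21 and 0.29 after rotational trauma and −1.68, −1.72 and −1.69 in the matching sham, and 1.70, 0.85 and 0.21 after percussion against −0.18, −0.46, 0.02 and −1.09. The rotational sham samples lay close together and the percussion samples were more spread, but the groups did not overlap in either model. The average difference was 1.71 (SE 0.23, limma adjusted p = 0.186), with 2.08 for rotational and 1.34 for percussion trauma. The probe lies on chromosome 17 from 20987215 to 20987274 of rn4. Over the alternative settings its adjusted p ran from 0.021 with a replicate block to 0.743 with the meningeal level as a covariate.

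Igf2 encodes insulin-like growth factor 2, which the leptomeninges and choroid plexus secrete into the cerebrospinal fluid. Rotational trauma samples were at 3.36, 2.20 and 2.43 and their sham at 1.75, 1.0 and 1.3. Percussion trauma samples were at 3.64, 2.94 and 2.67 and their sham at 1.93, 1.19, 1.59 and 0.82. Sample 1 of both trauma groups was the highest, and the lowest trauma sample was above the highest sham sample in each model. The average difference was 1.51 (SE 0.25, adjusted p = 0.186), a 2.84-fold higher signal. The probe lies on chromosome 1 from 202906641 to 202906700 of rn4.

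Cp encodes ceruloplasmin, a ferroxidase that in the brain is anchored to astrocyte and leptomeningeal membranes and lets iron leave the cell. It was at −0.42, −1.62 and −0.96 after rotational trauma against −1.89, −2.07 and −2.05, and at −0.78, −1.29 and −1.47 after percussion against −1.99, −2.32, −2.24 and −2.73. The sham samples of the rotational model lay within a narrow range while its trauma samples were spread, and neither model overlapped. The average was 1.07 (SE 0.19, adjusted p = 0.186), and 1.01 and 1.14 in the rotational and percussion models. Serping1 encodes the C1 inhibitor, which blocks the proteases C1r and C1s at the start of the classical complement pathway. It was at 1.1, 0.49 and 0.54 against 0.07, −0.03 and −0.14 in the rotational model and at 1.64, 0.93 and 0.80 against 0.31, 0.0054, 0.38 and −0.23 in the percussion model. The average was 0.87 (SE 0.16, adjusted p = 0.186), a 1.83-fold difference with no overlap in either model. The Cp probe lies on chromosome 2 from 105148774 to 105148833 and the Serping1 probe on chromosome 3 from 67968812 to 67968871, both of rn4.

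Clec10a encodes a galactose-binding lectin of macrophages and dendritic cells. Its signals were −2.10, −3.01 and −2.26 after rotational trauma and −3.16, −4.04 and −3.61 in sham, then −2.53, −3.02 and −3.26 after percussion and −3.88, −4.14, −3.88 and −4.58 in sham. The models differed little in size, 1.15 and 1.19, and averaged 1.17 (SE 0.20, adjusted p = 0.186). Ccl19 encodes a chemokine that draws cells carrying the receptor CCR7. It was at −0.10, −0.38 and 0.17 against −0.79, −1.55 and −1.22 and at 0.72, −0.17 and −0.01 against −0.46, −1.24, −0.60 and −1.38. The lowest percussion trauma sample lay not far above the highest sham sample. The average was 1.09 (SE 0.21).

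Vtn encodes vitronectin, an adhesion protein that pericytes make in the brain. It was at 1.0, 0.27 and 0.41 against −0.06, −0.62 and −0.34 after rotational and at 1.19, 0.66 and 0.45 against 0.35, −0.04, 0.08 and 0.11 after percussion trauma, an average of 0.77 (SE 0.16). Sdc1 encodes syndecan-1, a cell surface proteoglycan that binds growth factors and chemokines. It was at −2.58, −3.25 and −3.21 against −3.41, −3.62 and −3.42 and at −2.75, −3.07 and −3.21 against −3.76, −3.82, −3.79 and −4.08, an average of 0.66 (SE 0.12). Slc6a20a encodes a transporter of proline and other imino acids. It was at −1.55, −2.23 and −2.01 against −2.29, −3.19 and −2.77 and at −1.23, −1.81 and −2.08 against −2.70, −3.69, −3.01 and −3.59, an average of 1.18 (SE 0.22). For Vtn and Sdc1 the rotational trauma sample 1 stood above its 2 companions.

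Emp3, a membrane protein gene, was at 0.34, −0.37 and −0.07 against −0.66, −1.0 and −0.96 and at 0.65, −0.03 and −0.02 against −0.37, −0.64, −0.48 and −0.90, an average of 0.82 (SE 0.15). Fam180a was at −2.78, −2.77 and −2.92 against −3.55, −3.59 and −3.72 and at −2.69, −3.50 and −3.70 against −3.90, −4.45, −4.21 and −4.57, an average of 0.89 (SE 0.16). Its rotational trauma samples lay close together and percussion trauma sample 1 lay above the others. Bicc1, which encodes an RNA-binding protein, was at −4.87, −5.53 and −5.31 against −5.70, −6.37 and −6.00 and at −4.43, −5.20 and −5.43 against −5.79, −6.42, −6.01 and −6.12. No percussion sham array was above background for it (0 of 4), so its percussion difference is a bound of at least 1.68-fold. Such bounds set the mean of the brighter group against the group with no array above background. Each array of the dim group counts with its lowest signal that was well above background, or with the gene's own signal where that is higher. Each of these 12 genes had an adjusted p of 0.186.

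**Figure D2:**
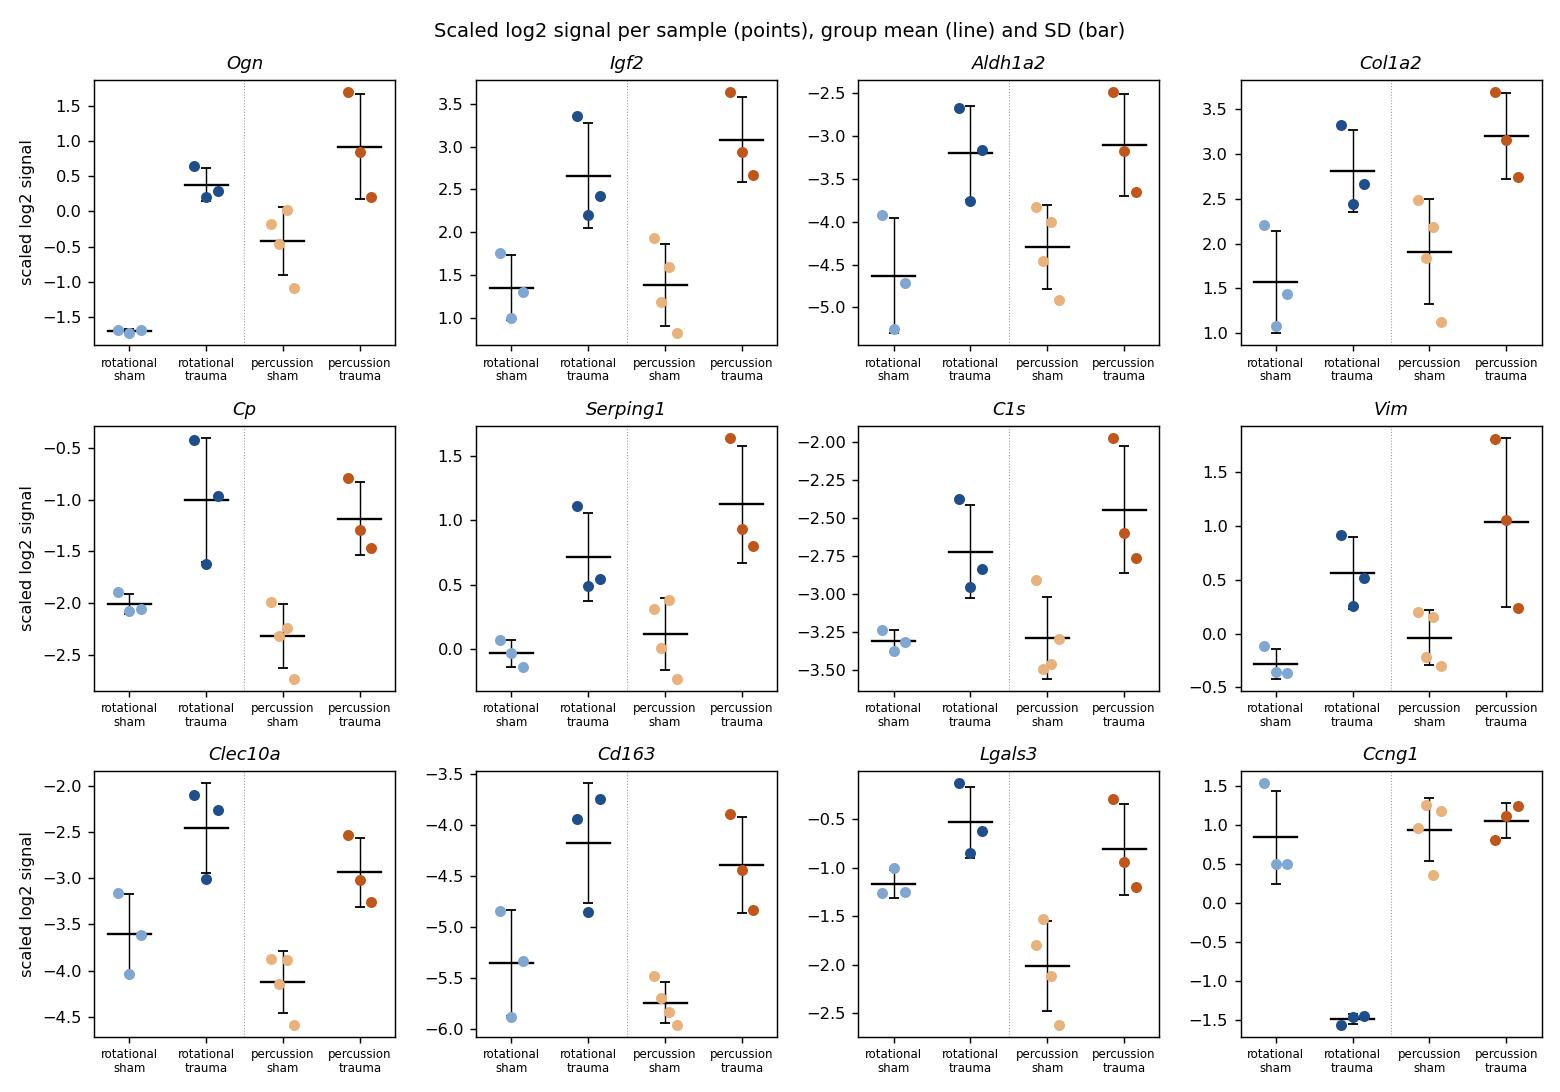
Scaled log2 signal of 12 genes in each of 13 samples (points) with the group mean (line) and SD (bar), in 4 groups of 3, 3, 4 and 3 samples; each panel has its own vertical scale. Ogn, Igf2, Aldh1a2, Col1a2, Cp, Serping1, C1s, Vim, Clec10a and Lgals3 show no overlap of trauma and sham in either model, while rotational groups touch for Cd163 and the percussion groups overlap for Ccng1.

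The promoters of Cp, Igf2, Sdc1, Vtn and Steap4 are shown because these genes stood higher after trauma and their start regions hold the letters that the factors of acute-phase genes are known to bind. Of the 12 genes, 10 were found in the table of promoters. A C/EBP motif was searched as TTGCNNAA and a STAT motif as TTCNNNGAA, on both strands of the 250 bases before each gene's start. The C/EBP letters were found in 3 of the 10 promoters (30.0%), those of Cp, Igf2 and Sdc1, against 9.22% of 33469 promoters of the same length. The STAT letters were found in 1 of the 10, that of Vtn, against 7.67%. Steap4, a metalloreductase gene described further on, holds both. Of the acute-phase list, from which Steap4 is shown, 15 of 21 promoters were found, with the C/EBP letters in 2 (13.3%), Cp and Steap4, and the STAT letters in 1 (6.67%), Steap4. Of the complement list 9 of 18 were found, with the C/EBP letters in 3 (33.3%), C1r, C3 and Itgam, and the STAT letters in 2 (22.2%), C1qa and Itgam. Of the 12 lower genes, 10 were found as well, with the C/EBP letters in 1, Lrrc45, and the STAT letters in 1, Dimt1. A match describes these letters in these windows and is no site of binding. The sequences are from RefSeq on GRCr8, written along the gene's strand, with the matches in capitals. The match begins at position −72 in Cp, −24 in Igf2, −73 in Sdc1 and −115 in Vtn, and in Steap4 at −66 for STAT and −37 for C/EBP, counted from the gene's start. The windows are chr2:104368420-104368669 on the plus strand for Cp, chr1:207253981-207254230 on the minus strand for Igf2, chr6:37281791-37282040 on the plus strand for Sdc1, chr10:63892532-63892781 on the plus strand for Vtn and chr4:27054770-27055019 on the minus strand for Steap4.
Cp: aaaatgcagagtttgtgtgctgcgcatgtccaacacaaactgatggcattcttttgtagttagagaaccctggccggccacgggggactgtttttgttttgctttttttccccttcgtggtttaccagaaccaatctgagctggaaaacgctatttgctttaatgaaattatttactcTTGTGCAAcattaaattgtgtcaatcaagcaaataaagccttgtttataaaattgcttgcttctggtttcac
Igf2: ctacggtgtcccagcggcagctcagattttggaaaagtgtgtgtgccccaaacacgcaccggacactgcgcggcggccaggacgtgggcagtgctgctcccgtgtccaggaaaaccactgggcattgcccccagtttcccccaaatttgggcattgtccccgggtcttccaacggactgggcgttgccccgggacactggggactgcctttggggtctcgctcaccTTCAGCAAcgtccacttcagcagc
Sdc1: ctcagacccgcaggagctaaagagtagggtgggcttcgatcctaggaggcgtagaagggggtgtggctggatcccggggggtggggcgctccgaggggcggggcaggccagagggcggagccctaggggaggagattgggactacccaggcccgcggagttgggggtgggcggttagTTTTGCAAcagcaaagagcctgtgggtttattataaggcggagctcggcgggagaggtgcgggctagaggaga
Vtn: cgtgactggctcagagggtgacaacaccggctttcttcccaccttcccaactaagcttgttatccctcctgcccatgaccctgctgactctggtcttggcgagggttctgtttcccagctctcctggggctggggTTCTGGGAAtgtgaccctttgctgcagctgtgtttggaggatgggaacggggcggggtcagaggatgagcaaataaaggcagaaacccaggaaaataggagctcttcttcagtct
Steap4: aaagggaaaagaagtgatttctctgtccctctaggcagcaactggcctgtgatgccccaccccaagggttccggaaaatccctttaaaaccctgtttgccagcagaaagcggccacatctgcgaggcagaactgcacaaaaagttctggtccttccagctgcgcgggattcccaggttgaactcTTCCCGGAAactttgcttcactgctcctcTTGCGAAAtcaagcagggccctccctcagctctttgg

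Meningeal fibroblast and matrix genes stood higher by about 2-fold in both models, and this was the list with the largest median of the 35 that were described. The lists were chosen with earlier results of these data known, and their genes are not independent. The rank and the counts are therefore a description and no test. Of 31 listed genes, 29 were measured, and 29 of 29 were higher in each model. The median shared difference was 1.03, with 0.98 in the rotational and 1.05 in the percussion model, against −0.01 over all genes tested. At an unadjusted p under 0.05 there were 25 of 29 members, none below 0 in either model, and 10 of 29 did not overlap in either model. Over all genes tested these shares were 5.10% higher at an unadjusted p under 0.05 and 0.557% higher without overlap, which are the shares to hold beside the counts of the lists that follow.

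The members with roles in collagen were Col1a1 and Col1a2, the chains of type I collagen, Col3a1 of type III, and Pcolce, an enhancer of procollagen cleavage. Col1a2 was at 3.32, 2.44 and 2.67 against 2.20, 1.09 and 1.44 in the rotational model and at 3.69, 3.16 and 2.75 against 2.49, 1.84, 2.19 and 1.13 in the percussion model, without overlap, and averaged 1.26 (SE 0.27). Col1a1 was at −0.002, −1.04 and −0.85 against −1.02, −1.93 and −1.60 and at 0.93, 0.30 and −0.27 against −0.78, −1.45, −1.43 and −2.29, an average of 1.35 (SE 0.29). Rotational sham sample 1 lay within the range of rotational trauma for Col1a1, and the percussion groups were apart. Pcolce averaged 1.06 without overlap, and Col3a1 1.18 with overlap in the percussion model. The type V and VI collagen genes were lower in size, with Col5a2 at 0.12, Col5a1 at 0.37, Col6a1 at 0.49 and Col6a2 at 0.73.

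Among proteoglycans and glycoproteins, Fmod differed by 1.03, Bgn by 0.91, Dcn by 0.74 and Fn1, which encodes fibronectin, by 0.56. Lum differed by 1.06 in the rotational model. No percussion sham array was above background for Lum, and its percussion difference was at least 1.38-fold. Ptgds encodes the synthase of prostaglandin D2, an abundant protein of the cerebrospinal fluid. It was at 6.65, 6.09 and 6.43 against 5.91, 4.91 and 5.41 and at 6.90, 6.24 and 6.08 against 5.71, 5.46, 5.80 and 5.12, an average of 0.93 (SE 0.19) with no overlap.

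Meningeal fibroblasts also make retinoic acid, through Aldh1a2. It was at −2.68, −3.77 and −3.17 against −3.92, −5.25 and −4.72 and at −2.49, −3.18 and −3.66 against −3.83, −4.46, −4.0 and −4.91, which averaged 1.31 (SE 0.29, and 0.84 with normexp background correction) without overlap. Crabp2, a carrier of retinoic acid, differed by 1.07. The related Aldh1a1 differed by 0.12, by 0.0078 without percussion trauma 1 and by 0.19 without percussion trauma 3. The organic anion transporter gene Slc22a6 differed by 1.1 without overlap. The transporter genes Slc6a13 and Slc13a4 differed by 1.14 and 1.08, and both models overlapped for them. Foxc1 and Tbx18, transcription factors of meningeal and mural development, differed by 0.74 and 0.91.

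The level of this list, its mean over the 29 members, was 0.23, −0.62 and −0.29 after rotational trauma against −0.72, −1.40 and −1.18. It was 0.67, −0.07 and −0.45 after percussion trauma against −0.53, −1.03, −0.75 and −1.37. All trauma samples were above the sham samples of their model, with the smallest gap in percussion, where trauma sample 3 stood just above sham sample 1. The highest sample of both trauma groups and of percussion sham lay in slide row 1, which held no rotational sham array. With slide row as a factor the median shared difference of the list was 0.82.

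**Figure D3:**
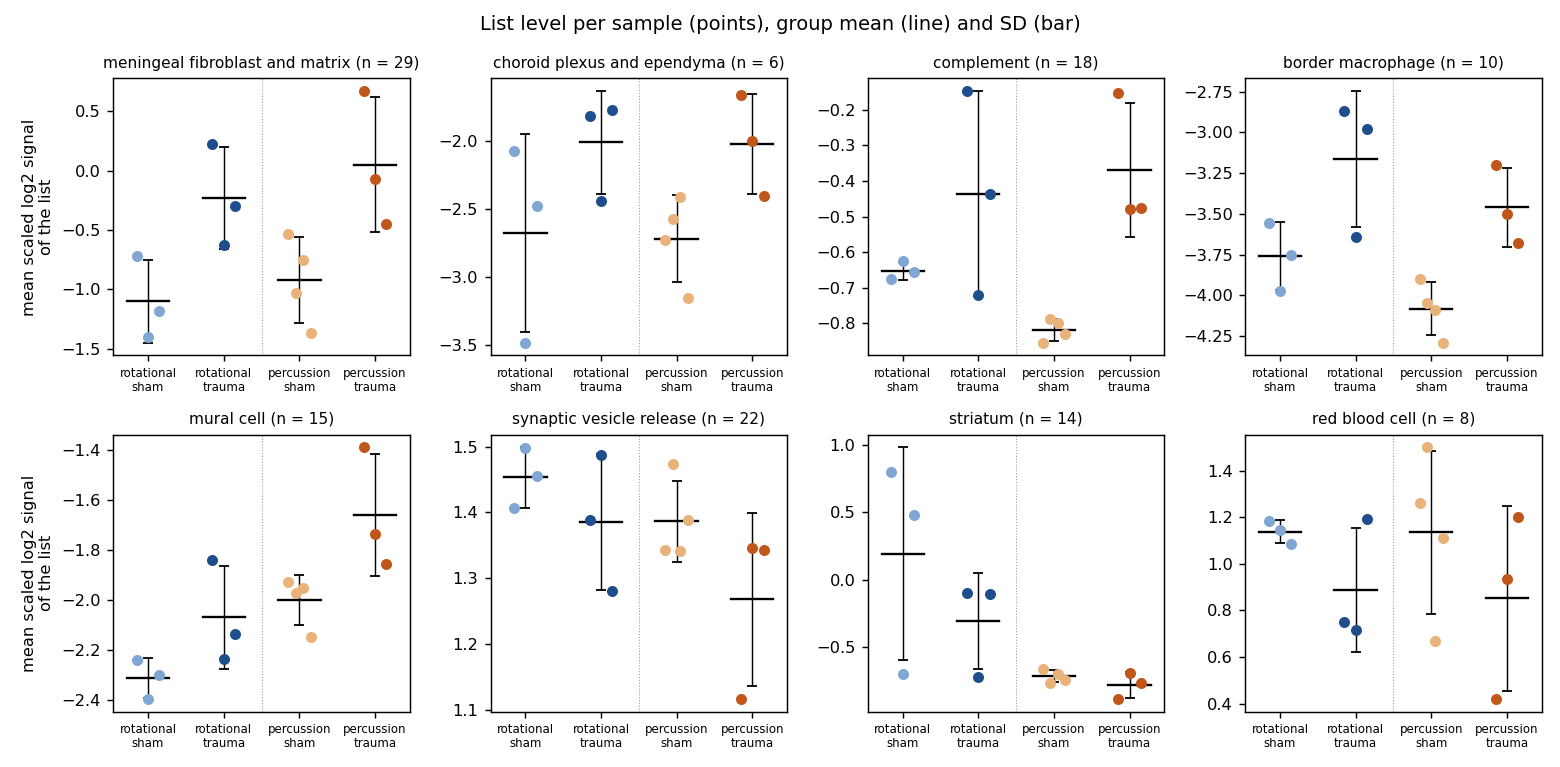
Mean scaled log2 signal of 8 gene lists in each of 13 samples (points) with the group mean (line) and SD (bar), in 4 groups of 3, 3, 4 and 3 samples; n is the number of measured genes. The meningeal list separates trauma from sham in both models, the mural cell list does so with a narrow gap in the rotational model, the complement and border macrophage lists do so in percussion only, and the striatum list is spread in rotational sham from −0.70 to 0.80.

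The growth factor and IGF list overlapped the meningeal list in Igf2 and in Igfbp2, which binds insulin-like growth factors. Of its 25 measured genes 20 were higher on average and 16 in both models (median 0.16, rotational 0.10, percussion 0.22), 10 at an unadjusted p under 0.05 and 3 without overlap in either model. The median was 0.062 with normexp. Igfbp2 was at 2.73, 1.66 and 2.17 against 1.46, 0.81 and 0.99 and at 3.20, 2.12 and 1.94 against 1.78, 1.21, 1.34 and 0.73, an average of 1.13 (SE 0.25) without overlap. Bmp7, a bone morphogenetic protein of meninges and choroid plexus, was at −1.01, −2.02 and −1.61 against −2.05, −2.74 and −2.48 and at −0.97, −1.90 and −1.84 against −2.26, −2.61, −2.25 and −3.02, an average of 0.92. The rotational trauma and sham values of Bmp7 were apart by a narrow gap. Angpt2, a vascular growth factor that loosens vessels, was at −3.64, −4.78 and −4.02 against −4.72, −5.46 and −5.39 and at −2.77, −3.83 and −4.52 against −4.74, −5.55, −5.04 and −5.49. Its average was 1.27 (SE 0.29), and 0.72 with normexp, rotational groups overlapped, and only 2 of 4 percussion sham arrays were above background.

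Of the choroid plexus and ependyma list 6 of 14 genes were measured, and 5 of them were higher on average (median 0.63). Aqp1, a water channel, was at −0.47, −2.20 and −1.79 against −2.56, −3.40 and −3.29 and at −0.43, −1.27 and −2.35 against −3.12, −2.70, −2.55 and −4.0, an average of 1.67 (SE 0.38). Kcnj13, a potassium channel, was at −2.42, −2.99 and −2.36 against −3.13, −4.29 and −3.86 and at −1.91, −2.84 and −3.04 against −3.12, −4.12, −3.49 and −4.73, an average of 1.22 (SE 0.30). Both were without overlap in either model. Ttr, the main transcript of choroid plexus, was far more spread, at −3.08, −3.76 and −1.02 against −0.93, −7.31 and −2.37 and at −1.95, −1.78 and −3.35 against −4.94, −2.85, −2.54 and −4.20. Its sham samples spanned the trauma samples in the rotational model, and the average of 1.1 had an SE of 0.94. It was 0.15 without rotational sham 2, 1.75 without rotational sham 1, 0.70 without rotational trauma 3 and 0.54 with normexp. The median of the list was 0.16 without rotational sham 2, 0.17 over probes above background on all arrays and 0.32 with normexp. The defining markers Kl and Folr1 were below background on all 13 and on 11 arrays.

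Most complement genes stood higher after both traumas, among them Cfd, the C1 proteases and their inhibitor, while C1q genes lay near 0. Of 18 measured members 16 were higher on average and 15 in both models, with a median of 0.24 (0.11 rotational, 0.36 percussion) and 8 at an unadjusted p under 0.05, against 5.10% of all genes higher at that threshold. The members without overlap in either model were 2, Serping1 and C1s, against 0.557% of all genes. C1s, a protease that cleaves C4 and C2, was at −2.38, −2.96 and −2.83 against −3.23, −3.38 and −3.32 and at −1.97, −2.60 and −2.76 against −2.91, −3.49, −3.46 and −3.30, an average of 0.72 (SE 0.15, adjusted p = 0.186). C1r, which activates C1s, was at −0.94, −1.64 and −1.54 against −1.83, −2.39 and −2.20 and at −0.45, −1.20 and −1.53 against −1.52, −1.97, −1.84 and −2.02, an average of 0.77 (SE 0.19). Its percussion groups met at 1 sample each. C4a was at 2.45, 1.28 and 1.78 against 1.1, 1.79 and 1.26 and at 2.50, 2.29 and 2.44 against 1.58, 1.44, 1.53 and 1.81, an average of 0.64 (SE 0.17). The percussion groups were apart for C4a, while rotational trauma samples 2 and 3 lay below sham sample 2. C4a has a near-identical copy, and a probe may read both. C1qa, C1qb and C1qc, which microglia make and which form the recognition part of the C1 complex, differed by 0.05, 0.04 and 0.06. C3, the central component of all pathways, differed by −0.49 in the rotational and 0.83 in the percussion model. Cfd, the protease of the alternative pathway, differed by 0.96 and Cfb by 0.40. The list's level was −0.15, −0.72 and −0.44 after rotational trauma against −0.68, −0.63 and −0.65, so that sample 2 lay below every sham sample. It was −0.15, −0.48 and −0.48 after percussion trauma against −0.85, −0.79, −0.80 and −0.83, without overlap.

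**Figure D4:**
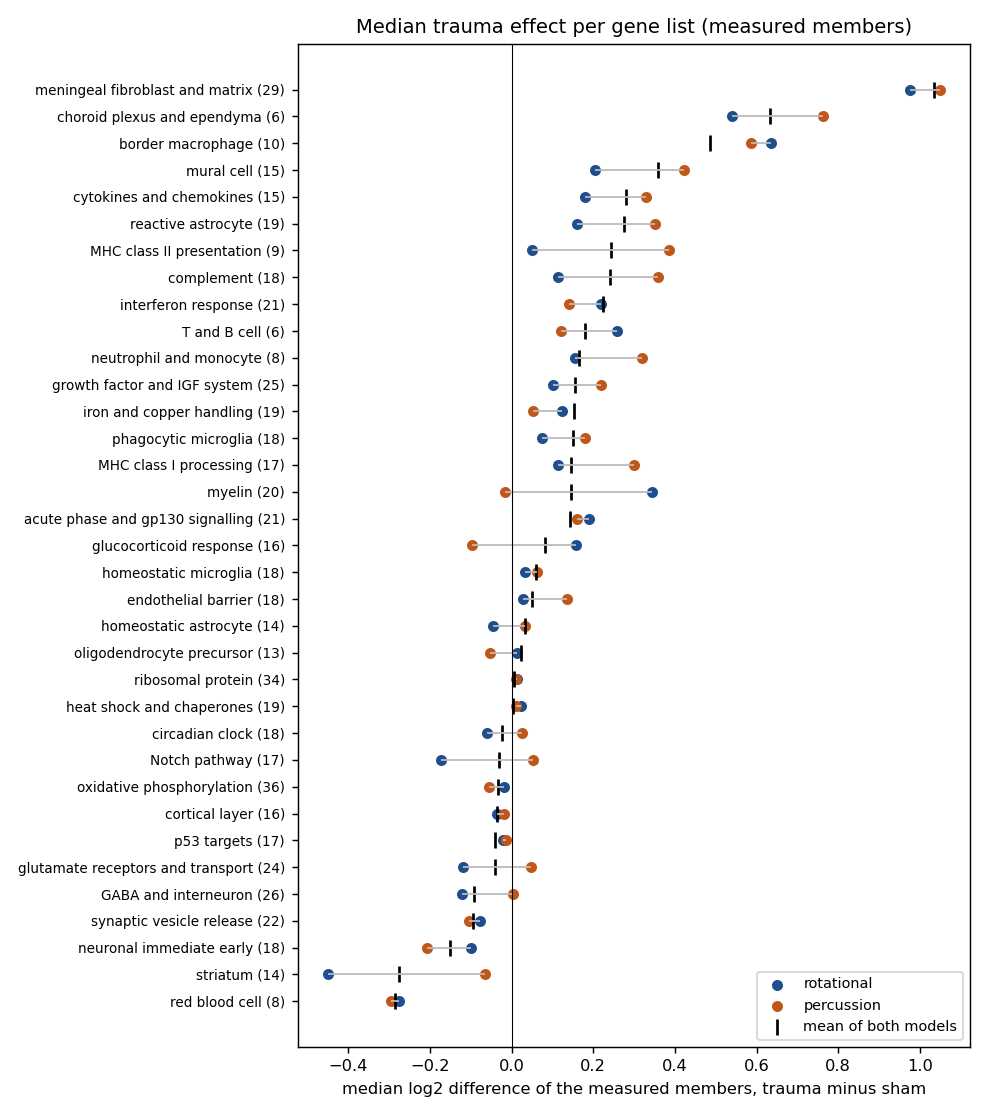
Median log2 difference of trauma minus sham over the measured members of 35 gene lists (number measured in brackets), for the rotational model (blue), the percussion model (orange) and the average of both (black line). The meningeal list stands apart at about 1 in both models, and most lists lie within 0.4 of 0.

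Reactive astrocyte and acute-phase genes, which share Cp, Steap4, Timp1 and Stat3, were higher as lists by smaller amounts. Of 19 reactive astrocyte genes 17 were higher on average and 14 in both models (median 0.28, rotational 0.16, percussion 0.35), and 3 did not overlap in either. The median was 0.17 without rotational trauma 1 and 0.42 without rotational trauma 2. Vim, an intermediate filament gene of reactive astrocytes and of fibroblasts, was at 0.91, 0.26 and 0.51 against −0.12, −0.36 and −0.37 and at 1.81, 1.05 and 0.24 against 0.20, −0.21, 0.16 and −0.30, an average of 0.96 (SE 0.22). Aspg, an asparaginase gene, was at −3.17, −3.52 and −3.44 against −4.24, −3.60 and −3.89 and at −2.30, −2.43 and −2.35 against −2.85, −4.01, −3.19 and −4.07, an average of 0.85 (SE 0.20). Neither gene overlapped in either model, with narrow gaps for Aspg in the rotational and Vim in the percussion samples. Gfap, the filament gene that defines reactive astrocytes, did not go the same way in both models: it was 0.02, −1.34 and −0.69 against −0.54, −0.01 and −0.37 and −0.18, 0.34 and 0.45 against −0.82, −0.70, −1.3 and −0.27. Its differences of −0.36 and 0.98 had opposite signs, and the test between the models gave an adjusted p of 0.449. The homeostatic astrocyte list was near 0 (median 0.03).

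Of 21 acute-phase and gp130 signalling genes 15 were higher on average and 11 in both models (median 0.14, and 0.22 without percussion sham 2), with 8 at an unadjusted p under 0.05. Cebpd encodes C/EBP delta, which switches on acute-phase genes. It was at 0.54, 0.21 and 0.30 against −0.45, −0.26 and −0.40 and at 0.19, −0.08 and 0.03 against 0.00072, −0.12, −0.18 and −0.16, an average of 0.44 (SE 0.07, adjusted p = 0.186). The rotational groups were apart and the percussion groups overlapped. Steap4 encodes a metalloreductase that reduces iron and copper for uptake. It was at −3.57, −3.67 and −3.47 against −4.69, −4.88 and −4.83 and at −5.14, −5.55 and −4.58 against −5.55, −6.20, −5.34 and −5.07, an average of 0.84 (SE 0.19). Percussion overlapped, only 1 of 4 percussion sham arrays was above background, and the average was 0.48 with normexp. The copper exporter gene Atp7a was at −2.16, −2.24 and −2.20 against −2.93, −4.12 and −3.19 and at −2.42, −2.49 and −2.33 against −2.43, −2.23, −2.23 and −2.38, a difference of 1.21 in the rotational and −0.10 in the percussion model. Cd14, a co-receptor for bacterial lipopolysaccharide, was at −3.88, −4.38 and −3.95 against −4.16, −4.25 and −4.66 and at −3.75, −4.33 and −3.70 against −4.49, −5.03, −4.72 and −4.74, an average of 0.55, and 0.32 with normexp. Its rotational groups overlapped and its percussion groups did not. The iron and copper list as a whole had 11 of 19 members above 0 (median 0.15). That median was 0.07 without rotational sham 2, 0.082 with percussion trauma 3 left out and 0.047 with rotational trauma 1 left out, and 0.044 to 0.053 with the mean over probes, array weights or normexp.

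Border macrophages sit in the meninges and around vessels, and their genes stood higher in both models. Of 10 measured genes 9 were higher on average and 8 in both models (median 0.49, rotational 0.64, percussion 0.59), with 7 at an unadjusted p under 0.05 and 2 without overlap in either. The median was 0.27 with normexp. Cd163 encodes the receptor that takes up haemoglobin bound to haptoglobin. It was at −3.94, −4.85 and −3.75 against −4.85, −5.88 and −5.33, a difference of 1.17, where trauma sample 2 and sham sample 1 met. In percussion it was at −3.89, −4.45 and −4.83 against −5.48, −5.70, −5.83 and −5.96, and since 0 of 4 sham arrays were above background the difference is at least 2.46-fold. Colec12, a scavenger receptor of endothelium and macrophages, was at −1.81, −2.59 and −2.18 against −2.70, −3.48 and −3.18 and at −1.99, −2.68 and −2.66 against −3.04, −3.62, −3.10 and −3.80, an average of 0.94 without overlap. Clec4a3 was at −2.22, −2.65 and −2.13 against −2.63, −2.29 and −2.40 and at −2.87, −2.92 and −2.85 against −3.67, −3.55, −3.64 and −3.57. It differed by 0.73 in percussion and 0.11 in the rotational model, where groups overlapped. The list's level was −2.87, −3.64 and −2.98 after rotational trauma against −3.56, −3.97 and −3.75, with 1 trauma sample inside the sham range, and −3.20, −3.50 and −3.68 after percussion trauma against −3.90, −4.05, −4.09 and −4.29, without overlap.

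Genes of microglia lay closer to 0 than those of border macrophages. The homeostatic microglia list had 13 of 18 members above 0 and a median of 0.06. Its member of smallest p, Olfml3, was at 0.69, −0.32 and 0.27 against −0.40, −1.42 and −0.82 and at 0.50, −0.0021 and −0.30 against −0.28, −0.82, −0.53 and −0.85, an average of 0.89. That gene overlapped in percussion. Cx3cr1, the fractalkine receptor, differed by −0.32. The phagocytic list had 15 of 18 members above 0 and 13 in both models (median 0.15, and 0.23 without rotational sham 1). Lgals3, which encodes galectin-3 of phagocytes and also of fibroblasts, was at −0.13, −0.85 and −0.62 against −1.25, −1.0 and −1.25 and at −0.29, −0.93 and −1.20 against −1.80, −1.52, −2.11 and −2.61, an average of 0.92 (SE 0.20) without overlap. Lyz2, the lysozyme of macrophages, was at 3.46, 2.87 and 3.19 against 2.83, 2.80 and 2.79 and at 3.02, 2.71 and 2.99 against 2.41, 2.67, 2.66 and 2.47, an average of 0.36, also without overlap. Gpnmb was at −1.20, −2.08 and −2.04 against −2.04, −2.19 and −2.04 and at −1.80, −1.76 and −1.99 against −2.36, −2.69, −2.56 and −2.48, and averaged 0.49. Rotational groups overlapped for Gpnmb. The lysosomal gene Cd68 was at −2.31, −3.25 and −2.93 against −3.14, −2.98 and −3.15 and at −2.51, −2.78 and −2.93 against −3.30, −3.33, −3.67 and −3.29, an average of 0.46, with overlap in the rotational model only.

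Antigen presentation genes stood higher by larger amounts after percussion, without a difference between models that passed. Of 9 class II genes 8 were higher on average and 6 in both models, with a median of 0.05 in the rotational and 0.38 in the percussion model. Cd74, the invariant chain, was at 0.05, −0.93 and −0.60 against −0.75, −0.60 and −0.96 and at 0.66, −0.49 and −0.64 against −1.08, −1.28, −1.83 and −1.66, differences of 0.27 and 1.3. RT1-Bb, a class II beta chain, was at −1.81, −2.52 and −2.41 against −2.23, −2.14 and −2.49 and at −1.73, −2.04 and −2.76 against −3.76, −3.37, −2.96 and −4.36, differences of 0.04 and 1.44. The test of the difference between models gave an adjusted p of 0.583 for Cd74 and 0.449 for RT1-Bb, so that neither was shown to differ between them. Of 17 class I genes 16 were higher on average (median 0.15, and 0.22 without percussion trauma 2). Erap1, an aminopeptidase that trims peptides for class I, was at −0.73, −1.14 and −1.05 against −1.18, −1.36 and −1.24 and at −0.89, −0.94 and −0.98 against −1.28, −1.45, −1.04 and −1.29, an average of 0.31 without overlap. Paralogous RT1 genes are much alike, and their probes may read more than 1 gene.

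Interferon response genes were higher in 19 of 21 and in both models in 16 (median 0.22, rotational 0.22, percussion 0.14), with 6 at an unadjusted p under 0.05, and the median was 0.33 without rotational trauma 2. Ifitm1, which encodes an antiviral membrane protein, was at −0.42, −1.43 and −0.79 against −1.63, −2.12 and −2.04 and at −0.31, −1.23 and −1.20 against −1.56, −2.13, −1.85 and −2.46, an average of 1.07 (SE 0.22) without overlap. Stat2, which carries the type I interferon signal, was at 0.98, 0.78 and 0.91 against 0.58, 0.55 and 0.59 and at 1.41, 1.44 and 1.42 against 1.37, 1.40, 1.37 and 1.18, an average of 0.20 without overlap, though the gap in percussion was narrow. Irf1 was at −0.39, −0.73 and −0.57 against −0.64, −0.63 and −0.67 and at −0.63, −0.68 and −0.52 against −0.91, −0.93, −0.91 and −0.94, an average of 0.20 with overlap in the rotational model. Of 15 cytokine and chemokine genes 13 were higher on average (median 0.28, 0.15 without rotational trauma 1 and 0.12 with normexp). Il18, the smallest p among them, was at −2.32, −2.81 and −2.20 against −2.96, −2.94 and −2.77 and at −1.90, −2.16 and −2.31 against −2.44, −2.43, −2.33 and −2.37, an average of 0.36 with overlap by 1 trauma sample in the rotational model. Of the T and B cell list 6 of 18 genes were measured, all higher on average (median 0.18, 0.057 with normexp and 0.095 with the authors' deposited table), while the defining genes Cd3e and Cd79b were below background on all arrays. Of the neutrophil and monocyte list 8 of 17 were measured (median 0.16). That median was 0.083 without rotational trauma 1, 0.092 without rotational sham 2, 0.11 without rotational trauma 3, 0.11 without percussion sham 3, 0.26 without percussion sham 1, 0.28 without rotational sham 1 and 0.49 without rotational trauma 2.

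Mural cells are the pericytes and smooth muscle cells of vessel walls. Of 15 measured mural genes 13 were higher on average and 12 in both models (median 0.36, rotational 0.20, percussion 0.42), with 9 at an unadjusted p under 0.05 and 1, Vtn, without overlap in either model. The median was 0.21 with normexp. Pdgfrb, the pericyte receptor for platelet-derived growth factor, was at −1.62, −1.79 and −1.96 against −2.07, −1.99 and −2.16 and at −0.91, −1.42 and −1.34 against −1.35, −1.87, −1.75 and −1.74, an average of 0.37. Acta2, smooth muscle actin, was at −3.49, −3.73 and −3.77 against −3.91, −3.83 and −3.83 and at −2.38, −2.84 and −3.05 against −3.02, −3.29, −3.50 and −3.41, an average of 0.37. For both genes the rotational groups were apart and the percussion groups overlapped by 1 sham sample. The endothelial barrier list was near 0, with 13 of 18 members above 0 and a median of 0.05.

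The meningeal level moved with trauma in both models, and its part in the differences of other genes was not tested. The fit was also made with each array's meningeal level as a covariate, an alternative chosen after the data were seen. The medians were then 0.14 for border macrophage, 0.06 for reactive astrocyte, 0.05 for complement and −0.03 for mural cell. Among genes outside the meningeal list, the average difference was then 0.35 for Cp, 0.25 for Serping1, 0.37 for Clec10a, 0.20 for C1s, 0.11 for Vim and 0.0095 for C1r. Steap4 was at 0.98 against 0.84 without the covariate, C4a at 0.51 against 0.64, and Clec4a3 at 0.42 against 0.42. With the covariate 0 genes passed by limma, as without it. The values of Ogn and Igf2, each left out of the level it was fitted with, were 0.90 and 0.48.

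On the lower side none passed. The lowest average of all, −2.40, was that of LOC687303, a gene with no official symbol that was singled out after its value was seen. Its signal was −7.61, −6.07 and −6.81 against −5.60, −4.47 and −5.19 in the rotational model and −6.12, −6.73 and −7.52 against −1.37, −3.74, −4.90 and −4.94 in the percussion model. No rotational trauma array and only 1 of 3 percussion trauma arrays was above background for it, so that the rotational signal was at least 1.81-fold lower. Genes with an official symbol differed less. Of the 12 named genes of smallest p without overlap, all but Cd70 averaged between −0.49 and −0.13, with limma adjusted p from 0.186 to 0.329. Shank3, which encodes a scaffold of excitatory synapses, was at 3.32, 3.38 and 3.27 against 3.38, 3.41 and 3.42 and at 3.21, 3.18 and 3.19 against 3.41, 3.42, 3.36 and 3.54, an average of −0.16, and −0.06 over the mean of its 2 probes. Celf5, a neuronal RNA-binding protein gene, was at 2.05, 2.08 and 1.94 against 2.15, 2.17 and 2.10 and at 2.21, 2.15 and 2.23 against 2.77, 2.43, 2.38 and 2.52, an average of −0.22. Stard4, a carrier of cholesterol, was at 0.32, 0.39 and 0.45 against 0.52, 0.73 and 0.60 and at 0.32, 0.29 and 0.21 against 0.39, 0.61, 0.52 and 0.46, an average of −0.23. The gaps between trauma and sham were narrow in these neuronal and lipid genes, and for Shank3 in the rotational model smaller than the rounding of the values. Dimt1, an enzyme that modifies ribosomal RNA, was at −2.42, −2.23 and −2.40 against −2.11, −2.18 and −2.14 and at −1.83, −2.01 and −1.71 against −1.57, −1.58, −1.62 and −1.58, an average of −0.23. Focad was at 1.48, 1.41 and 1.40 against 1.57, 1.74 and 1.64 and at 1.60, 1.44 and 1.56 against 1.79, 1.67, 1.62 and 1.65, an average of −0.18. Lrrc45, a centrosome protein gene, was at 2.42, 2.53 and 2.49 against 2.65, 2.64 and 2.60 and at 2.66, 2.68 and 2.65 against 2.84, 2.75, 2.77 and 2.72, an average of −0.13. All 3 were measured well above background on every array.

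Several genes of the lower set lay far below the 75th percentile. Rpl3l, a muscle form of a ribosomal protein, was at −5.20, −5.21 and −5.09 against −4.81, −4.84 and −4.80 and at −6.32, −5.75 and −5.76 against −5.53, −5.40, −5.08 and −5.28, an average of −0.49, and −0.27 with normexp, while 2 of 3 percussion trauma arrays were above background. Gnat1, a rod transducin gene, was at −3.75, −3.77 and −3.79 against −3.55, −3.50 and −3.63 and at −3.86, −3.84 and −3.88 against −3.64, −3.65, −3.75 and −3.76, an average of −0.19. Lamb3, a laminin chain, was at −4.02, −4.16 and −4.29 against −3.92, −3.42 and −3.43 and at −4.50, −4.38 and −4.57 against −3.97, −4.21, −4.21 and −4.38, an average of −0.43. All 3 are known mainly from other tissues. Slfnl1 was at −4.86, −4.59 and −4.80 against −4.42, −4.33 and −4.14 and at −4.21, −4.22 and −4.18 against −3.59, −4.12, −4.03 and −3.98, an average of −0.36. Cyp3a62, a cytochrome P450 gene, was at −4.74, −4.53 and −5.22 against −4.19, −4.51 and −4.09 and at −4.83, −4.76 and −4.66 against −4.17, −4.63, −4.51 and −4.58, an average of −0.42. Cd70, a ligand of lymphocyte activation, was above background on 3 of 3 rotational sham arrays, on 1 of 3 rotational trauma arrays and on 0 of 7 percussion arrays, so no percussion fold is given. Its lack of overlap in percussion is an order of background signals and not a measured difference. Its rotational signal was −5.91, −6.22 and −5.82 against −5.29, −5.49 and −5.75.

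Ccng1 and Hes1 show how an average can rest on 1 model. Ccng1, the cyclin G1 gene, was at −1.56, −1.46 and −1.45 after rotational trauma against 1.53, 0.49 and 0.50 and at 0.80, 1.12 and 1.24 after percussion against 0.96, 1.25, 0.36 and 1.18. Its average of −1.11 was made of −2.33 and 0.12, and the difference between models did not pass (adjusted p = 0.148). Hes1, a repressor downstream of Notch, was at −6.18, −5.76 and −4.50 against −3.19, −3.33 and −3.44 and at −2.69, −2.81 and −2.95 against −2.89, −2.50, −2.46 and −2.66, with no overlap in the rotational model. Only 1 of 3 rotational trauma arrays was above background for Hes1, so its average of −1.18, or −0.71 with normexp, rests on signals near background. The glutamate transporter gene Slc17a6 was at −1.09, −1.13 and −0.77 against −1.81, −2.11 and −1.72 and at −0.50, −0.77 and −0.43 against −0.61, −0.72, −1.22 and −0.78, an average of 0.57 made of 0.88 and 0.26. Ccn2, a deep-layer and matricellular gene, was at −0.91, −1.14 and −0.96 against −1.43, −2.01 and −1.57 and at −0.51, −0.62 and −0.54 against −0.79, −0.67, −0.56 and −1.0, an average of 0.43 from 0.67 and 0.20. The percussion groups of all 4 genes overlapped.

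Most members of 4 neuronal lists lay below 0, by small amounts. Of 22 synaptic vesicle genes 20 were lower on average and 15 in both models (median −0.09, rotational −0.08, percussion −0.10), with 2 at an unadjusted p under 0.05, beside 3.82% of all genes lower at that threshold and 8.93% in either direction. The median was −0.055 without percussion trauma 1. Snap25, a fusion protein of vesicle release, differed by −0.25 and the active-zone gene Bsn by −0.14. Of 26 GABA and interneuron genes 23 were lower on average and 12 in both (median −0.09, rotational −0.12, percussion 0.0042), with Cort, a neuropeptide gene, at 2.36, 2.42 and 1.93 against 2.33, 2.60 and 2.41 and at 1.73, 1.57 and 1.74 against 2.03, 2.59, 2.29 and 2.24. Cort averaged −0.41, with overlap in the rotational model. Of 24 glutamate receptor and transport genes 17 were lower on average and 9 in both (median −0.04, rotational −0.12, percussion 0.05). Of 18 immediate early genes 16 were lower on average and 11 in both (median −0.15, and −0.067 without rotational trauma 2), with Fos at −0.59 (SE 0.28) and Homer1 at −0.15, or −0.098 without rotational sham 2. Arc, a gene of synaptic plasticity, went apart, at 0.49 after rotational and −1.08 after percussion trauma.

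The striatum list was low mainly in the rotational model. Its markers were lower in 14 of 14 on average and 10 in both models, with a median of −0.45 in the rotational and −0.06 in the percussion model. The level of the list in rotational sham was 0.80, −0.70 and 0.48, with sample 2 far below its companions, against −0.10, −0.72 and −0.10 after trauma. The shared median of −0.28 was −0.13 without rotational sham 1 and −0.44 without rotational sham 2. In percussion it was −0.88, −0.69 and −0.77 after trauma against −0.66, −0.76, −0.70 and −0.74. Drd2 differed by −1.04 and −0.10 in the 2 models. Red blood cell genes were lower in 8 of 8 (median −0.28), with list levels of 0.75, 0.71 and 1.19 against 1.18, 1.14 and 1.08 and of 0.42, 0.94 and 1.20 against 1.26, 1.5, 0.67 and 1.11. The groups overlapped in both models. Myelin genes were higher on average in 18 of 20 but only 8 were higher in both models (median 0.34 rotational, −0.02 percussion). Their shared median of 0.15 was 0.026 without rotational sham 2, 0.097 without rotational trauma 1, 0.23 without rotational sham 1 and 0.054 with array weights.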

How the data were processed

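The authors scanned 1-colour arrays with Agilent Feature Extraction 10.5.1.1 and deposited a processed spot intensity that is already background-corrected, per the file headers, with probe positions on rn4. The authors' deposited table holds log2 values with a median of 8.15 in each of 13 columns, whose scale and centring are not given in the sources used here. For the results, log2 of the intensity minus the 75th percentile of its array was taken, spots of a probe were averaged, and the probe of highest mean stood for a gene. Of 30367 probes, 20004 were well above background on all arrays of at least 1 group, giving 17232 genes. No spot was saturated. The number of arrays limits the precision.

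Group means were fitted with limma 3.58.1 in R 4.3.3 (2-sided, Benjamini-Hochberg adjustment over all genes, threshold 0.05), and the code was tested on simulated data. Genes named are the 12 per direction of smallest p among non-overlapping genes with an official symbol, and up to 4 members of each list by p. Other list members were named after their values were seen. The members and lists were chosen with earlier results of these data known. Alternatives covered background correction, normalization, filters, probes, spread, array weights, slide, slide row, replicate numbers and each array left out.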

Additional observations from a re-analysis of the deposited data

Results flagged for a closer look

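In 2 genes 1 sample stood far from the other samples of its group. Cd68, a lysosomal gene of macrophages, was at −3.67 in percussion sham 3 against −3.33 to −3.29 in the other 3 samples. Stat2, of the interferon pathway, was at 1.18 in percussion sham 4 against 1.37 to 1.40 in the others. Only percussion sham, the group of 4 samples, was checked in this way, for 104 genes, and the groups of 3 samples were not checked. Among these 104 groups checked, chance gives such a sample in about 1 of 20 groups. Arc, an immediate early gene of neurons, differed between the models by 1.58 (rotational minus percussion): all rotational trauma samples were above their sham and all percussion trauma samples below theirs. The difference did not pass by limma (adjusted p = 0.218).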

How the results depend on the processing

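Each array in turn was left out, and the processing was varied for the counts, for 104 genes and for all lists. Genes called for the shared effect numbered 0 to 39 with 1 sample left out, 165 with array weights, 99 with a replicate block and 5 with slide row as a factor, and 0 otherwise. Whether the replicate numbers pair the samples cannot be told from so few pairs. Deviations of same-numbered samples correlated at 0.109, 0.265 and 0.0206 in the rotational and at 0.282, −0.0228 and −0.00601 in the percussion model. Those of differently numbered samples correlated at −0.226 to 0.133 in the rotational and at −0.236 to 0.228 in the percussion model. The highest value of each model was that of a same-numbered pair. Genes that differed between the models numbered 3782 without a filter on dim probes, 1 with trend and robust variance, 1 with array weights, and 0 to 16 with 1 sample left out. Without overlap and higher in both were 100 to 291 genes with 1 sample left out, where fewer samples make overlap rarer. Lower in both were 28 with normexp, 80 without the filter and 64 to 174 with 1 sample left out. Opposite were 230, 2917 and 178 to 515. The correlation of both effects was −0.465 without the filter and 0.0399 to 0.217 with 1 sample left out. Of 2693 gene values, 2593 kept direction and side of the threshold. Since no gene passed in the main fit, this means the same sign and still not passing, and the size could change. Another 86 came to pass and 14 changed sign, all 14 with the meningeal covariate, which was chosen after seeing the data: Ttr −0.40, RT1-Da −0.024, Psmb8 −0.0011, Ifitm3 −0.0047, Cd3g −0.077, Tagln −0.14, Cxcl16 −0.37, Gabra4 0.012, Mgp −0.20, Dcn −0.27, Lum −0.15, Slc6a13 −0.066, Crabp2 −0.051 and Aldh1a1 −0.12. Among them, Mgp, Dcn, Lum, Slc6a13, Crabp2 and Aldh1a1 belong to the meningeal list. Each was fitted with the level of the other members as covariate, so its value is set against its own list and its sign is no finding. The cause of the changes in the other genes was not tested. Of 909 list medians 883 moved by less than the spread between replicates. Probes near background limit what can be said of dim genes.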

Other observations

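Other lists of genes lay near 0 for the shared effect. Of 36 measured genes of oxidative phosphorylation 26 were lower on average, with a median of −0.03. The median was 0.01 over 34 ribosomal protein genes, of which 19 were higher. Over 18 circadian clock genes it was −0.02, and over 13 genes of oligodendrocyte precursors 0.02. Glucocorticoid response genes had a median of 0.16 in the rotational and −0.10 in the percussion model. In that list, Sgk1, a kinase gene that glucocorticoids induce, was at −0.28, 0.01 and 0.02 after rotational trauma against −0.97, −1.0 and −0.75 in sham. After percussion it was at −0.24, 0.17 and −0.69 against −0.24, −0.03, 0.08 and −0.02. The rotational groups of Sgk1 were apart and the percussion groups overlapped, and the difference between models did not pass by limma (adjusted p = 0.273). Sult1a1, which encodes a phenol sulphotransferase, was at 0.75, 0.60 and 0.95 after rotational trauma against 0.07, −0.34 and −0.21, without overlap. After percussion it was at 0.84, 0.51 and 0.19 against −0.72, −0.28, 0.27 and −0.16, where the groups overlapped, and the average of both models was 0.83.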
